A study of Homo sapiens with 6 samples.

Results

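The genes described here are 45 genes of DNA damage signalling and repair, taken by name from a fixed list and matched through a RefSeq gene table of GRCh38.p14 to the Entrez gene IDs of the count table, which holds 28395 IDs. RNA-seq after exome-probe capture covered a paclitaxel-resistant derivative, MDA-MB-468-PR, and its parental line MDA-MB-468, a human cell line of triple-negative breast cancer. The derivative was obtained in-house by keeping parental cells in paclitaxel, a drug that stabilises microtubules, at 3 to 4.5 nM over 2 months. There were 3 resistant and 3 control libraries, all labelled as untreated at harvest. Resistant replicate 1 and control replicate 1 belonged to a batch dated 2020 and the other 4 libraries to a batch dated 2021. All resistant libraries came from 1 derivative, so paclitaxel cannot be told apart from anything else that arose while that derivative was made. Whether the replicates came from separate cultures is not in the labels, and the p-values therefore reflect the scatter of these libraries, which may be technical.

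Cells mend broken DNA by several routes. Breaks of both strands are sensed by the MRE11, RAD50 and NBN complex and signalled by the kinases ATM and ATR, and are then either ligated directly by non-homologous end joining or copied from a sister chromatid by homologous recombination. The Fanconi anaemia pathway releases crosslinks between strands, PARP enzymes act on single-strand breaks, and mismatch and excision repair correct bases. Many of these genes are transcribed with the cell cycle, and defects in recombination genes are well known in triple-negative breast cancer.

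Total counts lay between 37889818 and 93680129 per library. All 45 members passed the filter on low counts and were tested, and no member had fewer than 69 counts in a library. Levels are given as CPM, library-scaled counts after TMM normalisation. The 7 epithelial markers checked (EPCAM, CDH1, EGFR and 4 keratins) summed to 11354 to 14081 CPM in resistant and 9244 to 11403 CPM in control libraries. EGFR, the growth factor receptor, was the marker that rose, averaging 5964 ± 1229 CPM in resistant and 3775 ± 1256 CPM in control libraries (SD, n = 3 each; adjusted p = 0.0199, edgeR), and the other 6 were not called. Sums were 22.5 to 26.2 and 23.2 to 30.5 CPM for 6 fibroblast markers, nearly all of it COL1A1, and 13.5 to 20.6 and 9.72 to 21.3 CPM for 6 leukocyte markers. For 4 endothelial markers they were 15.6 to 66.0 and 9.28 to 25.7 CPM, most of it KDR. COL1A2, COL3A1, DCN, LUM, PTPRC and CD3E lay at or near 0.

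Most repair genes were measured at similar levels in the resistant and the control line. Of the 45 members, 1 rose (TP53BP1) and 2 fell (FANCB and FANCC), which is 6.67% of them, against 11.7% of all 13950 genes tested (edgeR's quasi-likelihood test in a model of batch and line, at a Benjamini-Hochberg adjusted p below 0.05). In bulk RNA, fewer cells with a transcript and less of it per cell cannot be told apart. By direction, 6.23% of all genes tested rose and 5.48% fell. The median log2 difference, resistant minus control, was 0.02 over the members and 0.00 over all genes, and its median size was 0.11 and 0.19. For 37 members (82.2%) the 95% interval of the difference lay within 1.5-fold in either direction, against 56.4% of all genes. Intervals are wider at low counts, and the share over all genes was not matched for level. The 8 members whose interval reached further were TP53BP1, FANCB, FANCC, PARP1, BRCA2, RAD51B, RAD52 and ERCC4. Groups did not overlap for 4 members (8.89%, against 20.9% of all genes): FANCB, TP53BP1, PARP1 and XRCC6. With the replicate number as a block, 1 of the 3 calls, FANCB, was kept.

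**Figure D1:**
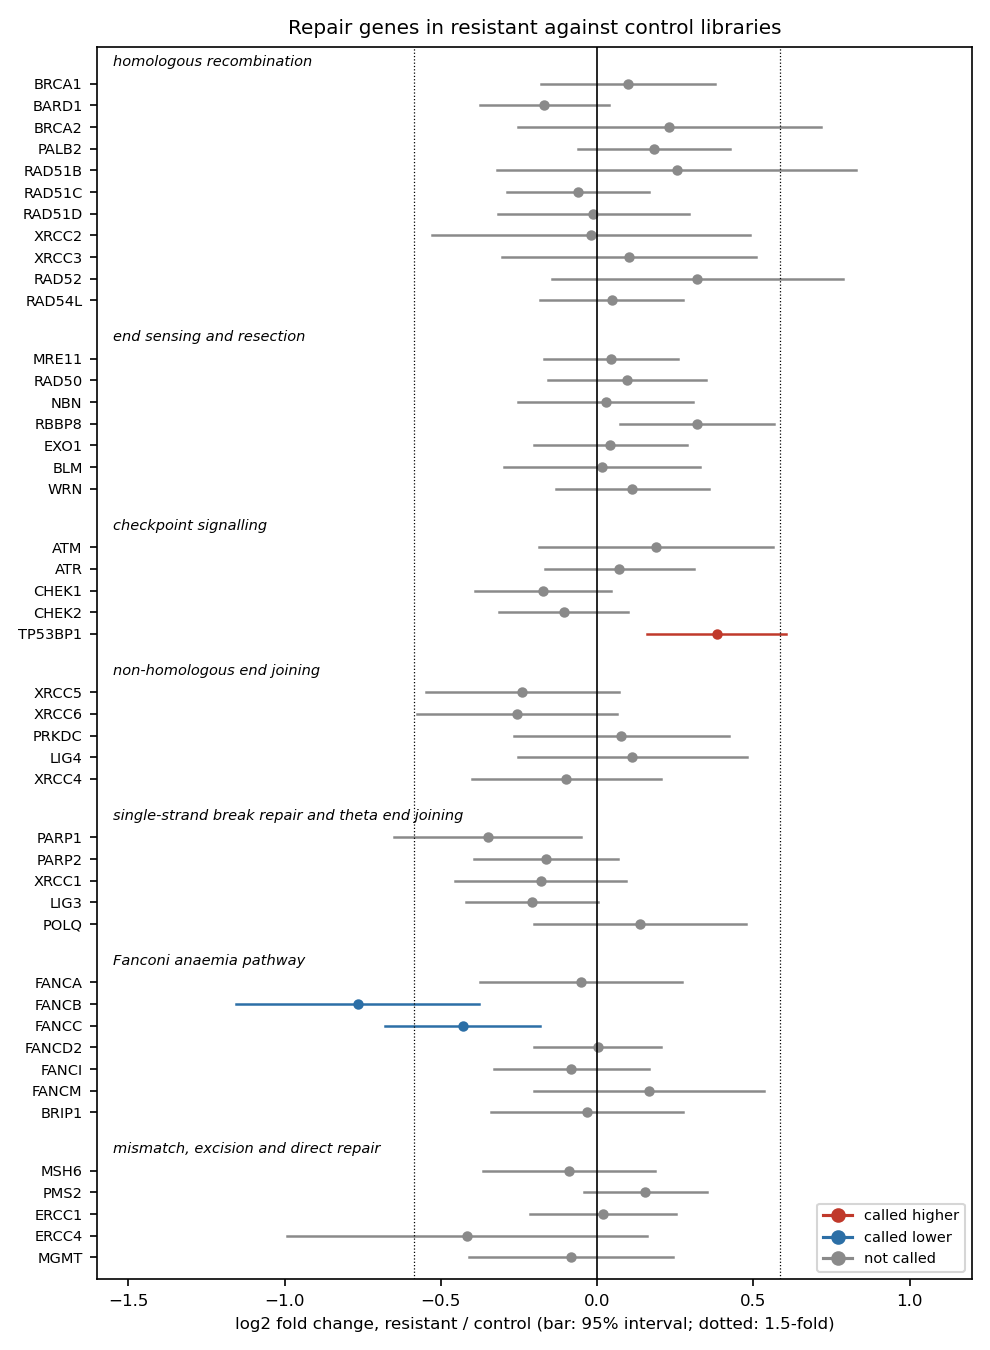
Log2 fold change of each of the 45 repair genes, resistant over control (x axis), with its 95% interval as a bar and genes grouped by role down the page. TP53BP1 lies right of 0 at 0.38, FANCB and FANCC lie left at -0.77 and -0.43, and 37 intervals lie between the dotted lines at 1.5-fold.

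Both members that fell belong to the Fanconi anaemia pathway. That is 2 of its 7 listed genes (28.6%), against 5.48% of all genes called lower. The median log2 difference of the 7 was -0.05, and a count this small does not describe the pathway. FANCB, a subunit of the core complex that ubiquitinates FANCD2 and FANCI at crosslinks (Entrez gene 2187, chromosome X, 14689524 to 14873069, GRCh38), had 13.0, 16.97 and 14.7 CPM in resistant replicates 1 to 3, against 28.4, 19.7 and 28.0 CPM in control replicates 1 to 3. Every resistant library lay below every control library, and control replicate 2 was the lowest control. FANCB fell by 0.77 ± 0.17 on the log2 scale (SE; 1.7-fold, adjusted p = 0.023), with differences of -1.13 in the 2020 pair and -0.57 in 2021. Its call ended without resistant replicate 1, resistant replicate 3 or control replicate 1 (adjusted p as high as 0.108), in the 2021 libraries alone (0.102) and with no term for batch (0.0825). For every gene, fits without a 2020 library rest on the 2021 comparison of the lines and are not separate from it. The replicate block gave 0.0444.

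FANCC, another core complex subunit (chromosome 9, 95099054 to 95317709, GRCh38), had 23.9, 15.5 and 16.6 CPM in resistant libraries, against 31.6, 23.6 and 20.1 CPM in control libraries. Within each batch the resistant libraries were the lower ones, while across batches resistant replicate 1 lay above control replicates 2 and 3. The fitted difference was -0.43 ± 0.11 (SE; 1.35-fold lower, adjusted p = 0.0373), with -0.40 in 2020 and -0.44 in 2021. Under the replicate block the adjusted p was 0.0585, in 2021 alone 0.135 and without the batch term 0.462, and the call also ended without any resistant replicate or control replicate 1 (up to 0.168). AOPEP, at 25.4 CPM, overlaps the span of FANCC and rose by 0.54 on the log2 scale. The strand setting of the counting is not given in the sources used here, so reads of the overlap cannot be told apart.

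The other 5 pathway members were not called. FANCD2, the ubiquitinated clamp, had 118, 94.7 and 94.0 CPM in resistant libraries and 115, 97.7 and 92.9 CPM in control libraries, and the values of each batch lay close together in both lines. Its log2 difference was 0.00 with a 95% interval of -0.20 to 0.20. Its partner FANCI averaged 184 ± 8.28 CPM in resistant and 195 ± 18.1 CPM in control libraries (SD, n = 3 each). FANCA of the core complex, the translocase FANCM and the helicase BRIP1 had log2 differences of -0.05, 0.17 and -0.03. FANCD2 has 2 annotated pseudogenes with which reads may be shared.

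Among the checkpoint genes, TP53BP1 was the member that rose. It encodes 53BP1, which binds chromatin at breaks and shields ends from resection (Entrez gene 7158, chromosome 15, 43403061 to 43510640, GRCh38). TP53BP1 had 208, 212 and 196 CPM in resistant libraries, against 166, 156 and 150 CPM in control libraries, and each line varied by less than the gap between them. The fitted log2 difference was 0.38 ± 0.10 (SE; 1.3-fold higher, adjusted p = 0.0387), with 0.32 in 2020 and 0.41 in 2021. Despite the small spread, the call did not hold under the replicate block (adjusted p = 0.0615), in 2021 alone (0.14), without the batch term (0.157) or when any library other than control replicate 2 was left out (up to 0.193). TUBGCP4, at 58.8 CPM, overlaps its span and had a log2 difference of -0.14.

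The promoter windows of the members that changed are printed to show what sequence lies at their starts, from 250 bases before to 50 bases after the RefSeq start site (GRCh38.p14, minus strand, written 5′ to 3′ on the gene's strand). Capitals mark E2F-type letters, which are TTCCCGC, its variant TTCGCGC, its variant TTGCCGC and its variant TTGGCGC, as well as the CHR element TTTGAA and the box CCAAT, each searched on both strands. FANCB lies at chrX:14873020-14873319, the upstream one of the 2 FANCC windows at chr9:95317660-95317959, and TP53BP1 at chr15:43510591-43510890.
FANCB: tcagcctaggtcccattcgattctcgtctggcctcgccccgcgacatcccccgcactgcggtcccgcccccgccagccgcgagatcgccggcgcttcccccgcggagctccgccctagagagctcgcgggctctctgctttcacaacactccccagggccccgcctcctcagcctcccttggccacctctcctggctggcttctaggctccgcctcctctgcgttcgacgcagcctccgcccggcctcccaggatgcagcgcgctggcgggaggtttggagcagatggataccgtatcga
FANCC: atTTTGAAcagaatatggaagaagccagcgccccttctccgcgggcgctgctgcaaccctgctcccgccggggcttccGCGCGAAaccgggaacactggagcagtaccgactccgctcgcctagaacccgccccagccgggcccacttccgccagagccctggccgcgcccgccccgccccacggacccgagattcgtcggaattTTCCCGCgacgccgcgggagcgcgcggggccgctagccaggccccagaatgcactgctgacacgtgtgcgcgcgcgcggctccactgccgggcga
TP53BP1: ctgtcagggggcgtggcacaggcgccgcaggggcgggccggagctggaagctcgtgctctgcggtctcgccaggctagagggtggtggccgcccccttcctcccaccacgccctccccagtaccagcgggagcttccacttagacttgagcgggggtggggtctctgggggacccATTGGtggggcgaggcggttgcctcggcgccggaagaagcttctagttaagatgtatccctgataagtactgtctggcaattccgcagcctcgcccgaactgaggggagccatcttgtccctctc
The FANCB window held none of these letters, the FANCC window held 2 E2F-type matches and 1 CHR match, and the TP53BP1 window held 1 CCAAT box, read on the opposite strand. E2F-type letters stood in 29 of 62 windows (46.8%) of the 40 members with an entry, against 13% of all 35116 windows. CHR letters stood in 9.68% and 15.2%, and the CCAAT box in 41.9% and 34.6%. These are matches of letters and show no binding.

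The remaining checkpoint members were not called. ATM, the kinase that answers double-strand breaks, had 217, 172 and 183 CPM in resistant libraries, against 210, 115 and 181 CPM in control libraries. The groups overlapped, with control replicate 2 lowest (log2 difference 0.19, 95% interval -0.18 to 0.56). ATR, the kinase of stalled replication forks, had 229, 178 and 191 CPM in resistant libraries, against 225, 161 and 185 CPM in control libraries, with an interval of -0.17 to 0.31. CHEK1, the kinase downstream of ATR, had 185, 101 and 111 CPM in resistant libraries, against 199, 121 and 123 CPM in control libraries. Within each batch CHEK1 was lower in the resistant line, but the difference of -0.17 was not called (adjusted p = 0.294). CHEK2, the kinase downstream of ATM, which has many annotated pseudogenes, had a log2 difference of -0.11.

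Among genes that sense and resect broken ends, none of 7 was called. The MRE11 nuclease complex was close to equal in both lines: MRE11 averaged 54.2 ± 19.9 CPM in resistant and 53.2 ± 22.7 CPM in control libraries (SD, n = 3 each). RAD50, its ATPase, and NBN, its adaptor, had log2 differences of 0.10 and 0.03. RBBP8, which encodes the resection factor CtIP, had 172, 118 and 134 CPM in resistant libraries, against 147, 90.2 and 105 CPM in control libraries. It was higher in the resistant line within each batch, by 0.22 in 2020 and 0.37 in 2021, but did not pass (log2 difference 0.32 ± 0.11 SE, adjusted p = 0.099). DESeq2 was the alternative that called it, with an adjusted p of 0.0499. The exonuclease EXO1 and the helicases BLM and WRN had log2 differences of 0.04, 0.02 and 0.11.

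Homologous recombination genes gave no call in 11 members. BRCA1, which promotes resection and loads recombination factors together with BARD1 (chromosome 17, 43044295 to 43170327, GRCh38), had 129, 81.4 and 108 CPM in resistant libraries, against 133, 84.3 and 83.8 CPM in control libraries. The 2020 library was the highest in both lines, and the difference of 0.10 had a 95% interval of -0.18 to 0.38. BRCA2, which places the recombinase on single-stranded DNA, had 135, 116 and 154 CPM in resistant libraries, against 154, 79.0 and 120 CPM in control libraries. Its direction differed between batches (-0.19 in 2020 and 0.46 in 2021), and its interval of -0.25 to 0.72 does not exclude a 1.5-fold difference. BARD1 and PALB2, the bridge between BRCA1 and BRCA2, had log2 differences of -0.17 and 0.18. The paralogues RAD51B, RAD51C, RAD51D, XRCC2 and XRCC3, which assist the recombinase, lay between -0.06 and 0.26. RAD52, an annealing factor, and RAD54L, a translocase, had 0.32 and 0.05.

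Non-homologous end joining gave no call in 5 members. PRKDC, the DNA-dependent protein kinase, had 1980, 1747 and 2179 CPM in resistant libraries, against 1866, 2070 and 1660 CPM in control libraries, with a log2 difference of 0.08 (95% interval -0.27 to 0.42). Its DNA-binding partners XRCC5 and XRCC6, the Ku subunits, had -0.24 and -0.26. XRCC6 had 657, 654 and 644 CPM in resistant libraries, against 699, 934 and 708 CPM in control libraries. These groups did not overlap, yet the spread of the controls was wide (adjusted p = 0.289). XRCC6 has annotated pseudogenes, as do PARP1, BRCA1, RAD52, MRE11 and RBBP8, and reads may be shared with them. The ligase LIG4 and its scaffold XRCC4 had 0.11 and -0.10.

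Among genes of single-strand break repair and of theta-mediated end joining, none of 5 was called. PARP1, the sensor of strand breaks and the target of PARP inhibitors (chromosome 1, 226360691 to 226408093, GRCh38), had 383, 385 and 418 CPM in resistant libraries, against 451, 599 and 464 CPM in control libraries. All resistant libraries lay below all controls, with differences of -0.24 in 2020 and -0.39 in 2021. The fitted difference of -0.35 ± 0.13 (SE) did not pass (adjusted p = 0.131, edgeR), and its adjusted p was between 0.0512 and 0.404 under the alternatives. PARP2, the scaffold XRCC1 and the ligase LIG3 had -0.16, -0.18 and -0.21. POLQ, the polymerase theta of microhomology end joining, had 65.0, 96.1 and 105 CPM in resistant libraries, against 73.0, 69.1 and 95.8 CPM in control libraries. The groups overlapped, and the difference was -0.17 in 2020 and 0.30 in 2021 (adjusted p = 0.602).

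The mismatch, excision and direct repair members gave no call in 5. MGMT, which removes alkyl groups from guanine, had 21.5, 22.3 and 16.4 CPM in resistant libraries, against 20.5, 23.2 and 19.8 CPM in control libraries. Resistant replicate 3 was the lowest, and the interval of -0.41 to 0.24 includes 0. The mismatch recognition gene MSH6 and the endonuclease gene PMS2 had log2 differences of -0.09 and 0.15, and PMS2 has many annotated pseudogenes. ERCC1 and ERCC4, the subunits of one excision nuclease, were not called either. ERCC1 averaged 84.1 ± 10.6 CPM in resistant and 82.7 ± 1.59 CPM in control libraries, and ERCC4 1.95 ± 1.3 and 2.39 ± 0.85 CPM (SD, n = 3 each), with a single library, resistant replicate 2, at the lowest ERCC4 count of 69.

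**Figure D2:**
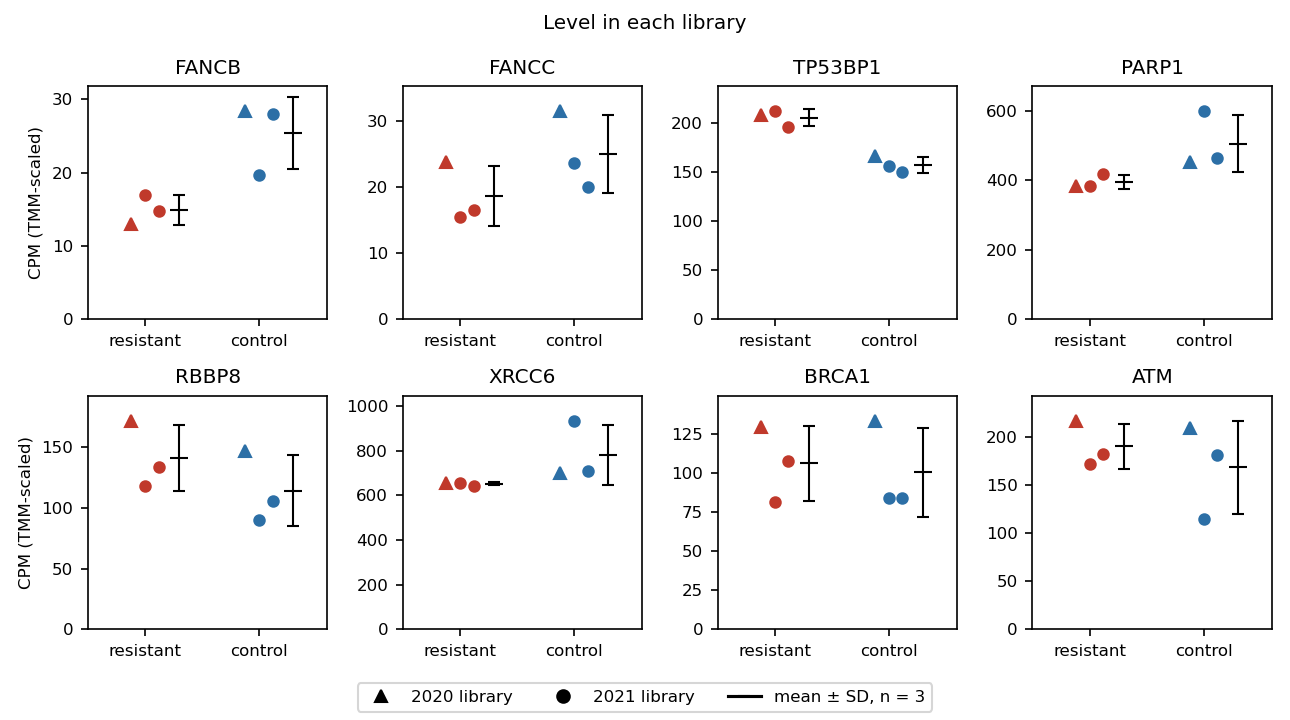
Level of 8 repair genes in each library, in TMM-scaled CPM on axes that start at 0, with resistant left of control, triangles for 2020 and circles for 2021 libraries, and a bar for the mean ± SD (n = 3). Resistant and control points do not overlap for FANCB, TP53BP1, PARP1 and XRCC6, while BRCA1, RBBP8 and FANCC are highest in the 2020 library of each line.

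Per kilobase of merged coding sequence (GENCODE 29), levels of the members spanned 499-fold. Capture by the exome probes may differ between genes, and reads outside coding sequence may be counted. Levels of different genes are therefore not strictly comparable, and their order is approximate. Over all 6 libraries, XRCC6 ranged from 353 to 511, XRCC5 from 265 to 377, PRKDC from 134 to 176 and PARP1 from 117 to 184 CPM per kb. MSH6, PARP2, CHEK1 and ERCC1 followed. BRCA1 ranged from 14.1 to 23.0, BRCA2 from 7.70 to 15.1, POLQ from 7.96 to 12.9 and FANCB from 5.04 to 11.0 CPM per kb. The lowest levels were those of RAD52, FANCM, XRCC3, RAD51B and, at 0.375 to 1.248 CPM per kb, ERCC4. RAD52 overlaps the span of ERC1, which averaged 87.0 CPM over all libraries, and XRCC3 that of KLC1, at 79.8 CPM. Both are well above the member's own CPM, and how reads in such overlaps were assigned is not known here. Of 44 pairs of neighbours in this order, 42 overlapped in range over the libraries; XRCC5 above PRKDC and RAD51B above ERCC4 did not.

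**Figure D3:**
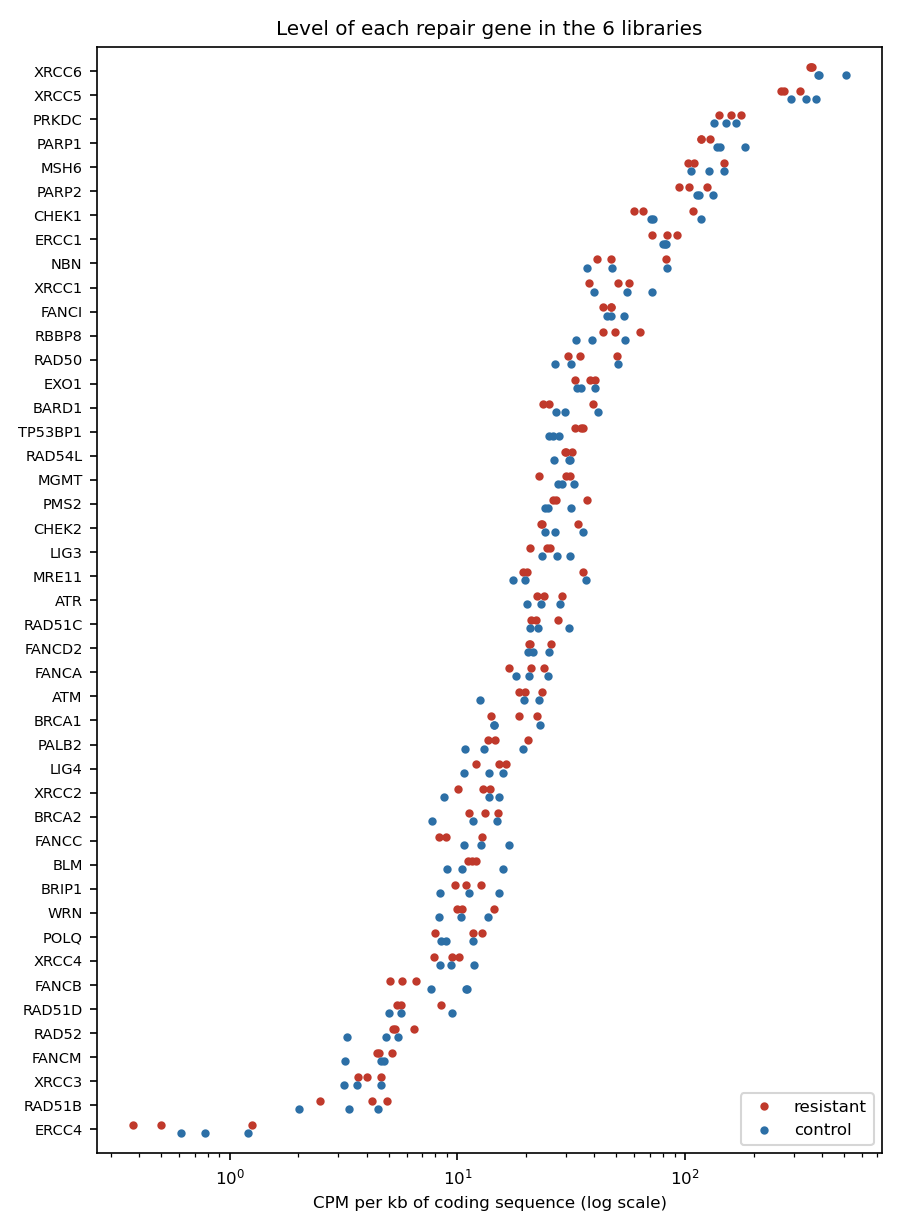
CPM per kb of coding sequence (log axis) of the 45 repair genes in each of 3 resistant (upper row of points per gene) and 3 control libraries, ordered by the mean over all libraries. Ku genes XRCC6 and XRCC5 stand at the top and ERCC4 at the bottom, and the points of the lines overlap for most genes.

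More members were called between the batches than between the lines. In the 2021 batch 17 members were lower and 1 was higher than in 2020 (edgeR, adjusted p under 0.05), against 22.9% of all genes called in either direction, 11.4% of all genes lower and 11.5% higher. The median log2 difference, 2021 minus 2020, was -0.32 over the members and 0.02 over all genes. MRE11 had 41.8 and 43.6 CPM in the 2021 resistant libraries and 37.8 and 42.6 CPM in the 2021 controls, against 77.1 and 79.2 CPM in the 2020 resistant and control libraries. It fell by 0.92 ± 0.10 on the log2 scale in 2021 (SE; adjusted p = 0.00102), and its partners RAD50 and NBN fell by 0.71 and 0.94 (adjusted p = 0.00646 and 0.00324). CHEK1 fell by 0.76 and CHEK2 by 0.51.

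Of recombination genes, BRCA1, BARD1, PALB2, RAD51C and RAD51D were lower in 2021, by 0.44 to 0.72 on the log2 scale, and of resection genes RBBP8 and WRN were lower too. FANCC, BRIP1, MSH6, PMS2 and ERCC4 completed the lower set, ERCC4 with the widest difference (-1.16). XRCC1 was higher in 2021, by 0.59. None of the 5 end joining members was called between batches. With 2 libraries in 2020, the count was 2 without either of them and 11 without resistant replicate 3. For the dependence of the line difference on the batch, 0 of 45 members and 0% of all genes were called after adjustment in edgeR, and 0 members with DESeq2. With 1 library per line in 2020, these counts do not show that the differences were alike in both batches. At an unadjusted p under 0.05 there was 1, BLM, against 1.34% of all genes.

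**Figure D4:**
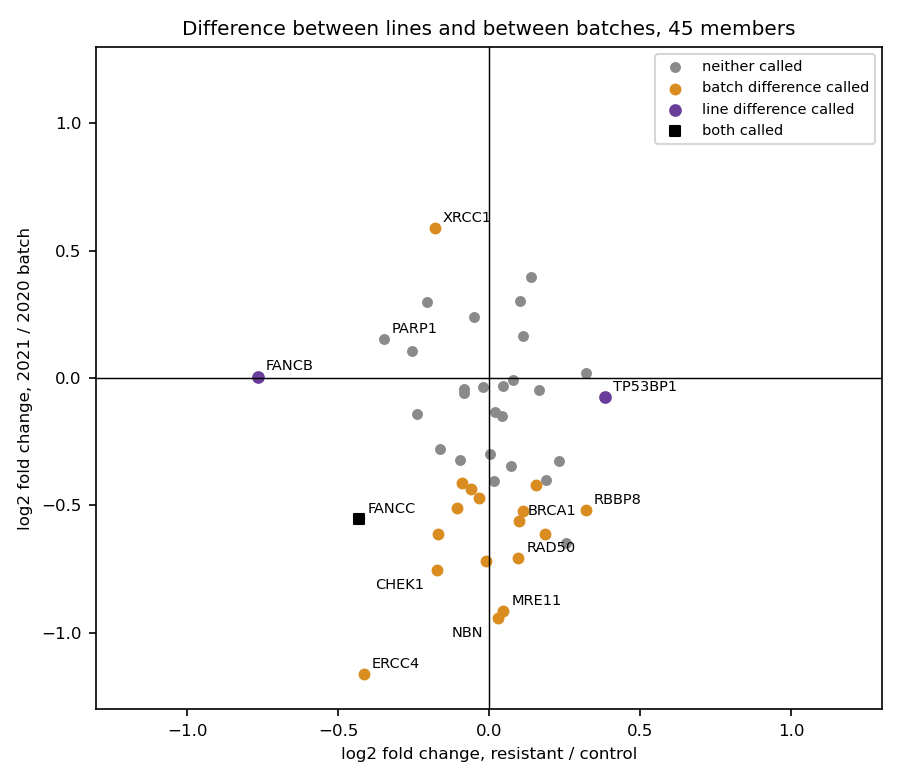
Log2 fold change of the 45 repair genes between the lines (x axis, resistant over control) and between the batches (y axis, 2021 over 2020). Most orange points, with a called batch difference, lie below 0 on the y axis near 0 on the x axis, with MRE11 and NBN under -0.9; FANCB and TP53BP1 stand apart along the x axis.

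Other genes of the same pathways were read from the same fit. Of 128 further repair genes, 127 have an ID in the count table and 124 were tested; 0 rose and 9 fell, which is 7.26%, against 5.48% of all genes called lower and 6.23% called higher. Their median log2 difference was -0.01. FANCE, a core complex subunit, had 13.2, 13.0 and 10.8 CPM in resistant libraries, against 25.3, 25.9 and 21.9 CPM in control libraries (1.98-fold lower, adjusted p = 0.00259). POLH, the translesion polymerase eta, fell 1.82-fold to 26.7 ± 4.44 CPM in resistant libraries, against 48.3 ± 5.68 CPM in control libraries (SD, n = 3 each; adjusted p = 0.00174). RNF8, a ubiquitin ligase that amplifies the signal at breaks, fell 1.73-fold to 34.8 ± 3.31 CPM in resistant libraries, against 60.4 ± 3 CPM in control libraries. TDP2, which removes topoisomerase II adducts from DNA ends, fell 1.52-fold. These 4 kept their call under every alternative run, with adjusted p up to 0.0443.

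The other 5 were ALKBH3, an alkyl-base demethylase (1.65-fold lower), APEX2, an apurinic endonuclease (1.54-fold), CETN2 of damage recognition in nucleotide excision (1.39-fold), UBE2T, the conjugating enzyme of the Fanconi pathway (1.36-fold), and TTI2, a cofactor of ATM and ATR maturation (1.32-fold), with adjusted p of 0.00343 to 0.0396. TTI2 lost its call under the replicate block (adjusted p = 0.0564) and in 7 other alternatives, UBE2T in 6, CETN2 in 3, APEX2 in 2 and ALKBH3 in 1. By list, other Fanconi genes had 2 of 14 lower and a median of -0.21, damage signalling 2 of 26 (median 0.01), base excision 1 of 16 (-0.05), nucleotide excision 1 of 17 (-0.03) and end joining 1 of 11 (0.01). Translesion synthesis had 1 of 9 lower with a median of 0.11 and other mismatch and direct repair 1 of 5 with 0.03. None of 26 further recombination genes was called (median -0.08). Of all genes tested 5.48% were called lower, and counts this small do not set the lists apart. MDC1, GTF2H2 and GTF2H4 had counts at or near 0 in all libraries and were not tested, and SHLD3 was not analysed here. How reads that map to several places were counted is not given, so such counts do not show that these genes are silent.

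Several of the lower repair genes shared a position on a chromosome with lower neighbours. Neighbours were the 10 tested genes on each side of a gene. Of the 20 neighbours of FANCB on chromosome X, 16 were called lower and 2 higher. Their median log2 difference was -0.85, against -0.77 for FANCB itself. FANCE, RNF8, POLH and TDP2 all lie on chromosome 6, between positions 24649979 and 43620523. There 14 to 16 of the 20 neighbours were called lower and none higher, with medians of -0.75, -0.81, -0.73 and -0.55. Elsewhere on chromosome 6, REV3L, SHPRH, GTF2H5 and MCM9 were not called (log2 differences 0.09, 0.14, -0.06 and -0.29). APEX2 on chromosome X had 11 of 20 neighbours called lower (median -0.60). By contrast, the neighbours of FANCC had a median of -0.01 with 0 called lower and 1 higher. Those of TP53BP1, which rose, had a median of -0.08, also with 0 called lower and 1 higher (TGM5). The medians around ALKBH3, TTI2, UBE2T and CETN2 were -0.12, 0.06, -0.31 and -0.32. Below 0 lay 12, 9, 15 and 16 of their 20 neighbours, with 0, 0, 3 and 2 called lower. CETN2, like FANCB and APEX2, lies on chromosome X. Over all tested genes the median was -0.33 on chromosome 6, with 231 of 658 called lower and 23 higher. On chromosome X it was -0.38, with 165 of 449 called lower and 17 higher. Of all genes tested on any chromosome, 5.48% were called lower. No member lies on chromosome 6, and FANCB is the member on chromosome X. Neighbouring genes are not independent measurements.

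**Figure D5:**
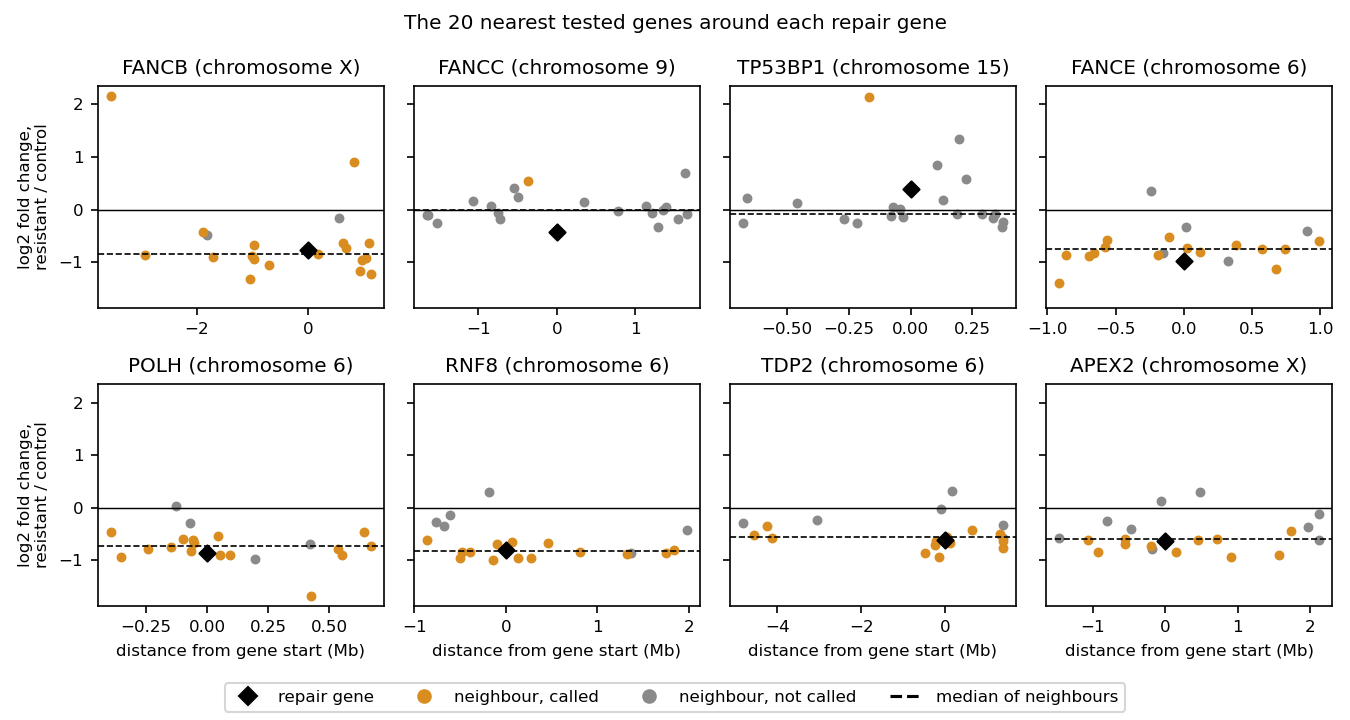
Log2 fold change, resistant over control (y axis), of the 10 tested genes on each side against their distance in Mb from the start of each of 8 repair genes (x axis), with the repair gene as a diamond and the median of the neighbours as a dashed line. The neighbours of FANCB, FANCE, POLH, RNF8, TDP2 and APEX2 lie mostly below 0, those of FANCC and TP53BP1 around 0.

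Proliferation markers are given beside these results because many repair genes follow the cell cycle. Of 24 such markers 0 rose and 3 fell (MCM3, E2F1 and CCNA2), which is 12.5% of them, against 11.7% of all genes called in either direction and 5.48% called lower. A single marker had a difference above 0, and the median was -0.22. MCM3, a subunit of the replicative helicase, lies on chromosome 6. The summed level of the markers was 5421 to 6916 CPM in resistant libraries and 6153 to 8158 CPM in control libraries, and these ranges overlap. Between batches, 4 of the 24 markers were higher in 2021 and 0 lower, against 11.5% and 11.4% of all genes, and 7 of the 24 had a batch difference below 0. Their part in the differences of the repair genes was not tested.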

How the data were processed

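The authors deposited 1 table of whole-number read counts per Entrez gene, not normalised, with a column for each of the 6 libraries. Columns were matched to samples by library name. Per the labels' protocols, 100 ng of RNA entered a Kapa HyperPrep library preparation, and transcripts were captured with Twist exome probes. Trimmomatic 0.38, STAR 2.7.8a, featureCounts of Subread and the build GRCh38 are named, per the submitters' processing notes; for strand setting, multi-mapping and annotation, nothing is given in the sources used here. The 650 IDs without a RefSeq match held 0.0327% to 0.0553% of counts. Intervals cover the spread between these libraries, and 3 counts correspond to 0.032 to 0.0792 CPM.

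All genes were fitted with edgeR 4.0.16 (filterByExpr by group, TMM, quasi-likelihood with robust estimation, batch and line as terms), and rows of the members were read from that fit. The steps were tested on simulated data. Standard errors derive from the F statistic, and log2 CPM used a prior count of 2. Alternatives used DESeq2 1.42.0 and limma 3.58.1. Members and lists were chosen with earlier results of these data known. Values per sample are given for called members and 10 fixed genes. RBBP8, XRCC6, MRE11, FANCE, RMI2 and H2AX were added after their values were seen. In lists of other repair genes, called genes whose mean reached 1 CPM are named.

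Within a line, library pairs had chi-square values of 58.8 to 180 per degree of freedom, above counting noise. Deviations from the group mean of libraries with the same replicate number correlated at 0.729, 0.143 and 0.155. These met the criterion for pairing by number, but replicate 1 is the 2020 library in both lines, so they include the batch. Within 2021 the crossed numbers correlated at 0.57 and 0.477. The difference of replicates 2 and 3 correlated at -0.361 between the lines, so pairing by number is not borne out within 2021.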

Additional observations from a re-analysis of the deposited data

How the results depend on the processing

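Of the 22 named genes, 321 of 374 values under the alternatives kept direction and call; 40 lost the call and 13 changed direction, all 13 in genes not called. Called members kept their direction throughout: log2 differences ranged from -0.95 to -0.59 for FANCB, -0.50 to -0.36 for FANCC and 0.34 to 0.42 for TP53BP1. Both scalings, both filters, DESeq2, voom and no robust estimation (an alternative added after the data were seen) left 3 or 4 members called, and the block with crossed numbers 3. The replicate block left 1 member called, the other repair genes at 9 and all genes at 1303. Without the batch term there were 0 members, 4 other repair genes and 362 genes called, and in the 2021 batch alone 0 members, 7 other repair genes and 1012 genes. Leaving out each library gave 0 to 3 members, 5 to 16 other repair genes, 617 to 1985 genes, and 2 to 25 members between batches. A library left alone in its batch is assumed to vary like the others. The cause of these differences was not tested. Fits with fewer libraries have fewer degrees of freedom, while the fit without the batch term used all 6 libraries. The log2 difference of FANCD2 was -0.0058 without a filter and -0.0176 in 2021 alone. Leaving out 1 library gave ranges of -0.0282 to 0.0242 for FANCD2, -0.0536 to 0.187 for BRCA1, -0.0261 to 0.171 for PRKDC, -0.197 to 0.0491 for MGMT, -0.000221 to 0.366 for ATM and -0.0336 to 0.284 for POLQ. Without a filter all genes called numbered 2286 and with DESeq2 2204. The member with the fewest counts in a library was ERCC4, with 69.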

Other observations

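Repair genes outside the 45 members also differed between the batches: of 124 tested, 14 were higher and 20 lower in 2021 (edgeR, adjusted p under 0.05), against 11.5% and 11.4% of all genes. RMI2, a subunit of the BLM dissolvase complex, had 2.27 and 2.17 CPM in the 2021 resistant libraries and 2.86 and 2.74 CPM in the 2021 controls, against 10.2 and 10.3 CPM in the 2020 libraries. WEE1, the kinase that restrains entry into mitosis, fell by 1.10 on the log2 scale in 2021. H2AX, the histone phosphorylated at breaks, was higher in 2021 by 0.94, with 121 and 93.3 CPM in resistant and 138 and 135 CPM in control libraries, against 60.2 and 66.0 CPM in 2020. With 1 library per line in 2020, the year cannot be told apart from those libraries.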
